A study of Rattus norvegicus with 12 samples.

Results

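Genes of glycolysis, lactate handling and the response to low oxygen were followed in a rat oligodendroglial cell line, OLN, that stably expressed alpha-synuclein. The set held 35 genes: transporters and hexokinases for glucose uptake, the enzymes of glycolysis, lactate dehydrogenases and transporters, the kinases that restrain pyruvate dehydrogenase, the oxygen-labile factor Hif1a with its prolyl hydroxylases, and genes known to respond to hypoxia. A probe set was assigned to a gene when its annotated symbol or title named that gene, and each gene was read from 1 probe set, the one with the highest mean log2 signal among those called present on at least 2 of the 12 arrays. All 35 genes had a probe set, 47 in all, of 31096 on the array. Of these, 38 probe sets for 33 genes met the detection rule and were tested, among 19248 tested in the whole series. The lactate exporter Slc16a3 and the hydroxylase Egln3 were each called present on 1 array and were not tested.

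Every group carried the alpha-synuclein transgene. The cells received, with the reagent Fugene-6, either an empty control vector (called mock) or p25alpha in pcDNA3.1. The p25alpha protein is a microtubule-associated protein of oligodendrocytes, also called TPPP. RNA was taken 8, 12 or 16 h later in experiments 1 and 2, so that each of the 6 groups held 2 arrays, 1 from each experiment. The promoter that drives alpha-synuclein, and whether the line is 1 clone, are not given in the sources used here. Untransfected cells and cells before transfection were not analysed here. Whether experiments 1 and 2 used separate cultures is not stated in the labels, so the spread behind each p-value is that of these arrays and may be technical.

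Glycolysis splits glucose to pyruvate in the cytosol, and lactate dehydrogenase reduces pyruvate to lactate, which leaves the cell through monocarboxylate transporters. When oxygen falls, the prolyl hydroxylases encoded by the Egln genes no longer mark the HIF alpha subunit for destruction, and the stabilised factor raises transcription of glucose transporters, many glycolytic enzymes and genes such as Vegfa, Bnip3 and Adm. Oligodendrocytes are known to use glycolysis and to export lactate to axons through Slc16a1.

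Of 13 measured markers of the oligodendroglial lineage, 8 were called present on all 12 arrays, among them Olig1, Sox10, Cspg4, Pdgfra and Cnp, while Olig2 and Mobp were called present on none. Of 6 microglial markers, Aif1, Itgam, Ptprc and Cd68 were called present on none and Csf1r and Tyrobp on at least 1, and the summed signal of the 6 was 47.6 to 96.3 in mock and 37.9 to 93.2 in p25alpha cells. Of 6 astrocyte markers, Gfap, Slc1a3 and S100b were called present on all 12 arrays and Slc1a2 on none, with sums of 1776 to 3195 and 1810.5 to 3050.2. Of 8 neuronal markers, Map2 and Nefm were called present on all 12, with sums of 771 to 1565 and 838 to 1358. Of 7 fibroblast and smooth muscle markers, Col1a1 was called present on all 12 and Col1a2, Dcn and Lum on none. In such bulk RNA, fewer cells of a type and less RNA per cell cannot be told apart. The share of probe sets called present lay between 49.3 and 55.2% per array. The actin ratio of 3′ to 5′ signal, which is higher where RNA is degraded or less completely copied, had its lowest and highest values at 2.14 and 3.12 among arrays of experiment 1, and at 4.65 and 7.05 among those of experiment 2. It was higher at 16 h than at 8 h in all 4 pairs of arrays, at 2.60 against 2.14 and 7.05 against 4.65 in mock cells and at 3.12 against 2.40 and 6.08 against 4.74 in p25alpha cells. The matching ratio for Gapdh stayed between 0.898 and 1.09. The part of these ratios in the results was not tested.

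The first comparison asked how the set moved between 8 and 16 h in each arm. In mock cells 25 of the 33 tested genes had a higher mean log2 signal at 16 h than at 8 h, which is 75.8% against 46.9% of all tested probe sets. Their median log2 difference was 0.22, against -0.019 over all tested probe sets. In p25alpha cells 19 of 33 were higher, 57.6% against 47.4%, with a median of 0.0016 against -0.017. Over the mean of both arms 23 were higher, 69.7% against 45.7%. No gene of the set passed limma's moderated test with Benjamini-Hochberg adjustment over all 19248 probe sets at 0.05, in either arm or in their mean. The same test called 0% of all tested probe sets in mock cells, 0% in p25alpha cells and 0% in the mean of both. At an unadjusted p under 0.05 it passed 2 members in mock cells against 1.76% of all probe sets, 1 in p25alpha cells against 1.87%, and 2 in the mean of both against 2.40%.

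With the experiment as a block, which removes differences between experiments 1 and 2, the unadjusted counts were 7, 6 and 9 of 33, the last being 27.3% against 10.1% of all probe sets; the other backgrounds were 7.40% and 7.41%. The 9 genes of the mean of both arms were Aldoc, Ndrg1, Bnip3, Slc2a1, Ddit4, P4ha1, Bnip3l, Hif1a and Ldha, all higher at 16 h, and none passed after adjustment. In the fit without the block, the mock median was 0.068 once the experiment 2 mock array at 8 h was left out. With the block it was 0.25. Without the block, the p25alpha median ran from -0.080, leaving out the experiment 2 array at 8 h, to 0.18, leaving out that of experiment 1. With the block these values were -0.037 and 0.13.

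Pairing each 16 h array with the 8 h array of its own arm and experiment gave 4 pairs. In all 4 pairs 12 of the 33 genes were higher at 16 h, 36.4% against 8.34% of all tested probe sets. They were Slc2a1, Aldoc, Pgam1, Eno1, Pkm, Ldha, Hif1a, Bnip3, Bnip3l, Ndrg1, Ddit4 and Adm. Ldhb and Pdk3 were lower in all 4, 6.06% against 10.1%, though not once the arrays were centred on their median. Within the arms, 21 genes were higher at 16 h in both mock pairs, 63.6% against 23.6%, and 13 in both p25alpha pairs, 39.4% against 23.8%. Those lower in both pairs numbered 4 in mock cells, 12.1% against 28.2%, and 5 in p25alpha cells, 15.2% against 26.2%. In 5 genes, Aldoc, Pgam1, Ldha, Bnip3 and Bnip3l, all 4 arrays at 16 h lay above all 4 at 8 h, 15.2% against 1.08%. In none did all 4 lie below, 0% against 1.21%. Both mock arrays at 16 h lay above both at 8 h for 11 genes, 33.3% against 8.68%, and both p25alpha arrays did for 6, 18.2% against 8.15%. After quantile normalization, which gives every array the same distribution of signals, 8 genes were higher in all 4 pairs: Pgam1, Eno1, Pkm and Ldha were no longer among them. All 4 arrays at 16 h then lay above all 4 at 8 h for Aldoc, Bnip3, Bnip3l and Slc2a1, and no longer for Pgam1 and Ldha.

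**Figure D1:**
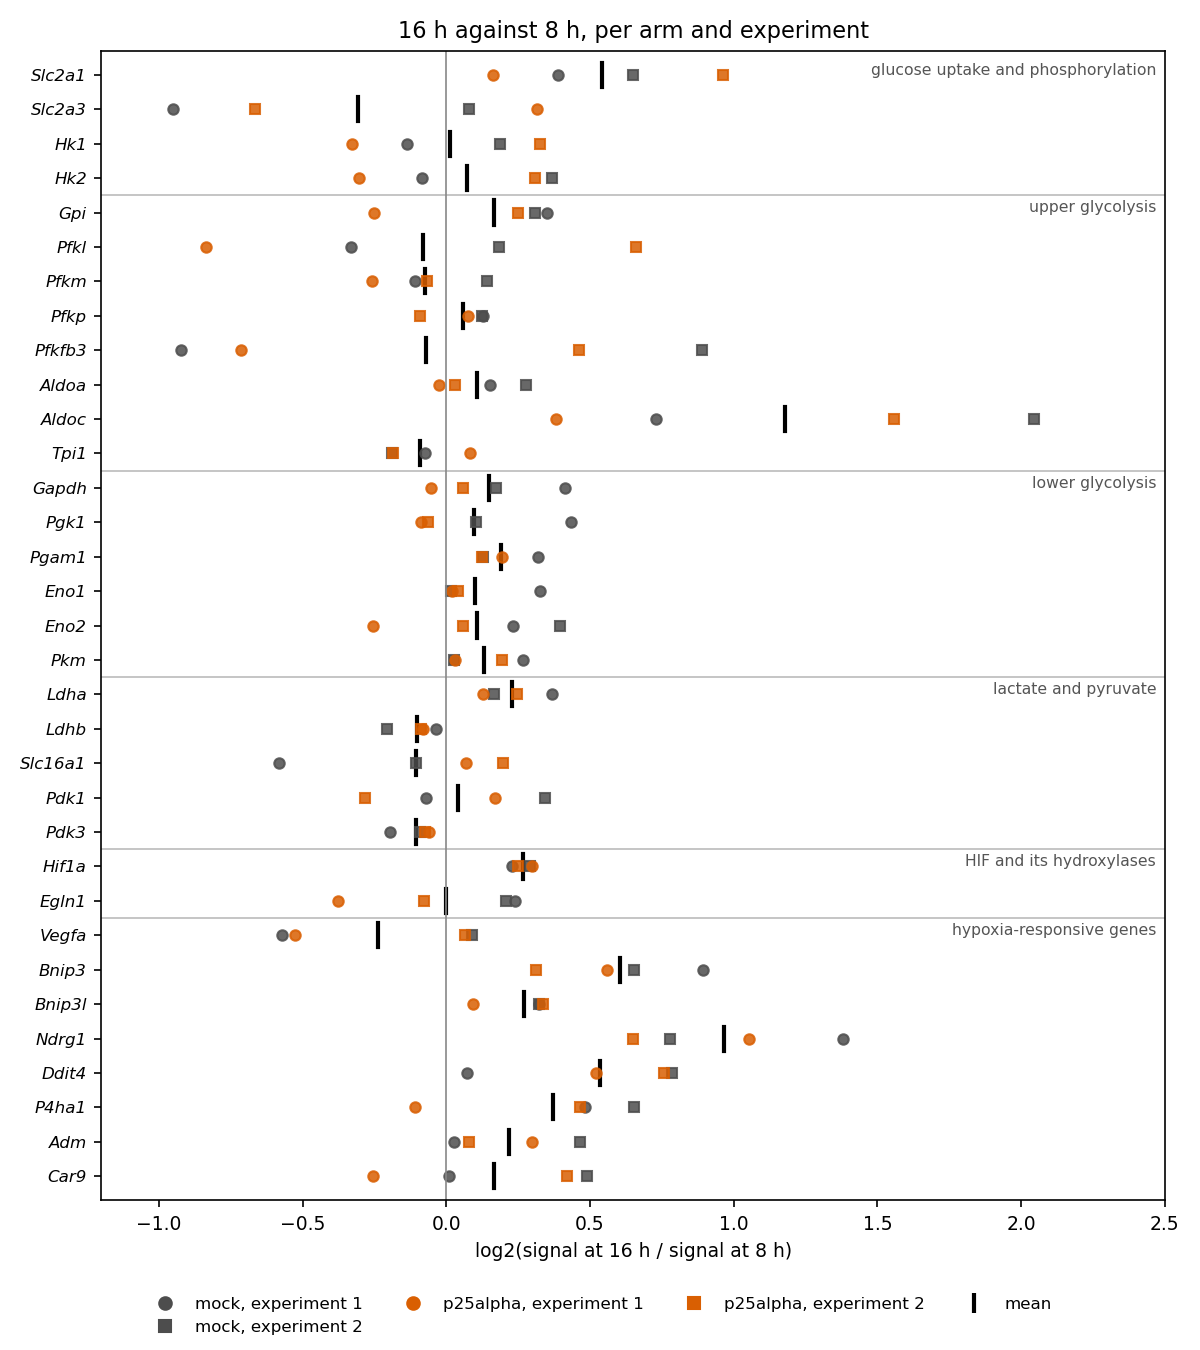
The log2 signal at 16 h minus that at 8 h, on the x axis, is drawn for each of the 33 tested genes by role, with 1 point for each of the 4 pairs of arrays (mock and p25alpha cells, experiments 1 and 2) and a tick at their mean. Aldoc, Bnip3 and Ndrg1 lie to the right of 0 in all 4 pairs, while Slc2a3 and Pfkfb3 have pairs on both sides.

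The medians of the roles moved by different amounts when the arrays were scaled in another way. The 8 hypoxia-responsive genes had a median difference of 0.38 in mock cells and 0.20 in p25alpha cells, with 7 and 7 of 8 above 0, and after quantile normalization of 0.36 and 0.20, with the same counts. The 6 enzymes of lower glycolysis had a median of 0.25 in mock cells, with 6 of 6 above 0, but 0.040 and 4 of 6 after quantile normalization. In p25alpha cells their median was 0.016 and turned to -0.052 after quantile normalization. The 8 genes of upper glycolysis had medians of 0.071 and -0.030 in the respective arms, and the 5 tested genes of lactate and pyruvate -0.12 and -0.057. Bright probe sets as a whole were higher at 16 h: the 1458 tested probe sets with a mean log2 signal of 10 or more had a median of 0.079 in mock cells, beside 0.26 for the 11 members among them. In p25alpha cells those values were 0.043 and 0.031. The split by brightness was chosen after seeing the data. Over the mean of both arms, 14 of 33 genes stood in the order 8, 12, 16 h upwards, 42.4% against 19.5%.

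**Figure D2:**
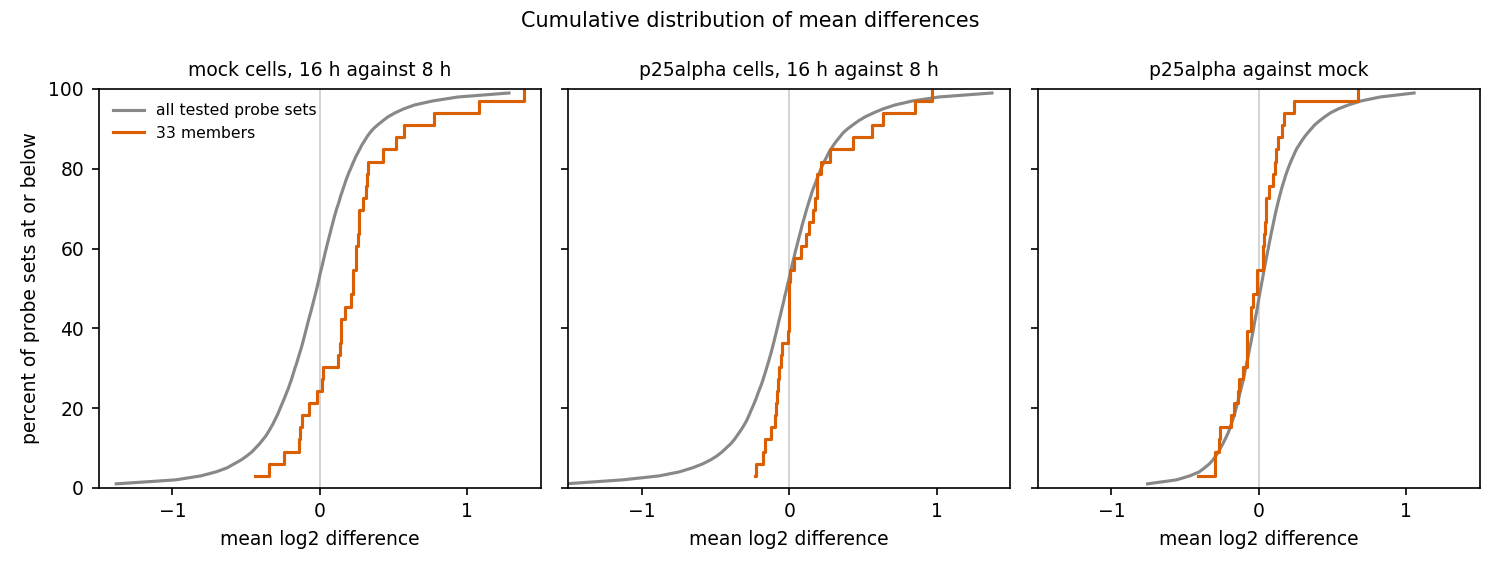
Cumulative share of genes, on the y axis, against the log2 difference, on the x axis, for the 33 members and for all 19248 tested probe sets, in 3 panels: 16 h minus 8 h in mock cells, the same in p25alpha cells, and p25alpha minus mock over the mean of the times. The members' curve lies to the right of the other in the mock panel, where the medians were 0.22 and -0.019, and close to it in the third, where they were -0.014 and 0.013.

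Array values below are MAS5 signals on a linear scale, always in the order 8, 12 and 16 h. A difference is a mean log2 signal at 16 h minus that at 8 h, or p25alpha minus mock, and its error is the SE of limma's fit without the block. Where 1 named array is left out, a gene's difference is from the same fit. The group of that array then holds 1 experiment, so the difference between the experiments enters the value. Unless an adjusted p is given, it was 1.0 without the block.

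Of glucose uptake, Slc2a1, the glucose transporter of most dividing cells and of brain endothelium, gave signals of 126, 136 and 165 in mock cells of experiment 1, 76.4, 97.6 and 120.0 in mock cells of experiment 2, 116, 124 and 130.4 in p25alpha cells of experiment 1 and 67.9, 108 and 132 in p25alpha cells of experiment 2. All 4 pairs were higher at 16 h, but the groups overlapped, with lower signals in experiment 2 at 8 h, and only 8 of the 12 arrays, none of them p25alpha arrays of experiment 2, called it present. Its difference was 0.54 ± 0.25 over both arms, with an adjusted p of 0.359 under the block, and 0.35 without the experiment 2 p25alpha array at 8 h. The high-affinity transporter Slc2a3 was dim, with signals of 56.4, 30.3 and 29.2 in mock cells of experiment 1, 21.5, 20.0 and 22.7 in mock cells of experiment 2, 26.6, 28.3 and 33.1 in p25alpha cells of experiment 1 and 43.5, 31.4 and 27.4 in p25alpha cells of experiment 2. Its highest signals were those of mock cells in experiment 1 and p25alpha cells in experiment 2 at 8 h, and its pairs fell on both sides of 0, with a difference of -0.31 ± 0.33. Hexokinases trap glucose in the cell as its phosphate. Hk1 differed by 0.012 ± 0.42 and Hk2 by 0.072 ± 0.21, and neither kept one direction across the pairs.

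In upper glycolysis Aldoc, the aldolase typical of brain, had the widest difference of the set. It gave signals of 91.4, 140.4 and 152 in mock cells of experiment 1, 48.4, 114 and 199.7 in mock cells of experiment 2, 101, 103 and 131 in p25alpha cells of experiment 1 and 63.4, 95.2 and 186 in p25alpha cells of experiment 2. Every array at 16 h was above every array at 8 h, and the order 8, 12, 16 h held in each arm of each experiment. The difference was 1.39 ± 0.37 in mock cells, which is 2.62-fold, and 0.97 ± 0.37 in p25alpha cells, which is 1.96-fold, and 0.64 without the experiment 2 p25alpha array at 8 h. Over both arms it was 1.18 ± 0.27, with an adjusted p of 0.282 under the block. The size differed between experiments: the mock pair of experiment 2 differed by 2.04 and that of experiment 1 by 0.73. Aldoa, the other aldolase, which muscle and most cells use, gave 3085, 3797 and 3430.4 in mock cells of experiment 1, 2391, 2247 and 2895 in mock cells of experiment 2, 3651, 3214 and 3584 in p25alpha cells of experiment 1 and 2499, 2708 and 2554 in p25alpha cells of experiment 2. Its groups at 8 and 16 h overlapped, with a difference of 0.11 ± 0.24 that turned to -0.0054 after quantile normalization. Of the phosphofructokinase subunits, which make up the committed step, Pfkl differed by -0.080 ± 0.39, Pfkm by -0.073 ± 0.15 and Pfkp by 0.059 ± 0.13. The isomerase genes gave 0.17 ± 0.50 for Gpi and -0.091 ± 0.15 for Tpi1. Pfkfb3, whose product makes an activator of phosphofructokinase, was called present on 7 arrays, and its signals of 7.80 to 22.8 showed no common direction.

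In lower glycolysis Pgam1, the mutase that moves the phosphate of phosphoglycerate, gave signals of 4928, 5518 and 6147 in mock cells of experiment 1, 5577, 5260.0 and 6094 in mock cells of experiment 2, 5293, 5935 and 6061 in p25alpha cells of experiment 1 and 5951, 6039 and 6485 in p25alpha cells of experiment 2. All 16 h arrays lay above all 8 h arrays, by 0.19 ± 0.13 over both arms, though after quantile normalization the difference was 0.047. Pgk1, which makes ATP ahead of it, gave 3826, 3928 and 5171 in mock cells of experiment 1, 4465, 4793 and 4798 in mock cells of experiment 2, 4608, 4173 and 4339.8 in p25alpha cells of experiment 1 and 4593, 4482 and 4397 in p25alpha cells of experiment 2. Only the mock pair of experiment 1 differed widely, and the difference over both arms, 0.10 ± 0.14, turned to -0.022 after quantile normalization. Of the other tested probe sets of Pgk1, the bright one was likewise higher at 16 h in both mock pairs, and the dim one was called present on 2 arrays. Gapdh, the dehydrogenase that yields NADH, differed by 0.15 ± 0.17, and its probe set also lists near-identical loci, so that the gene it reads is uncertain. Eno1, the widespread enolase with the same uncertainty, differed by 0.10 ± 0.26, and the neuronal enolase Eno2 by 0.11 ± 0.14. After quantile normalization Gapdh stood at -0.0092 and Eno1 at -0.026. Pkm, the pyruvate kinase that ends the pathway, differed by 0.13 ± 0.26 over both arms.

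Among the genes of lactate and pyruvate, Ldha, the subunit of lactate dehydrogenase that prevails in glycolytic tissue, gave signals of 5546, 5928 and 7160.3 in mock cells of experiment 1, 6087, 5876 and 6824 in mock cells of experiment 2, 6191, 6502 and 6772 in p25alpha cells of experiment 1 and 6099, 6296 and 7233 in p25alpha cells of experiment 2. All 16 h arrays were above all 8 h arrays, by 0.23 ± 0.13, with an adjusted p of 0.435 under the block and a difference of 0.056 after quantile normalization. Ldhb, the subunit of oxidative tissue, gave 560.5, 596 and 546 in mock cells of experiment 1, 752, 655 and 653 in mock cells of experiment 2, 509, 538 and 481 in p25alpha cells of experiment 1 and 645, 649.9 and 606 in p25alpha cells of experiment 2. It was lower at 16 h in all 4 pairs, by -0.10 ± 0.18, and all its signals were lower in experiment 1 than in experiment 2. Slc16a1, the transporter that carries lactate across the membrane, gave 668, 469 and 446 in mock cells of experiment 1, 678, 653 and 630.3 in mock cells of experiment 2, 458, 464 and 481 in p25alpha cells of experiment 1 and 561, 482 and 642 in p25alpha cells of experiment 2. Both mock pairs were lower at 16 h and both p25alpha pairs were higher. The kinase Pdk3, which inhibits pyruvate dehydrogenase, was lower in all 4 pairs, by -0.10 ± 0.13, and Pdk1 of the same family differed by 0.040 ± 0.21. Slc16a3, the lactate exporter of glycolytic cells, is the untested gene of this group.

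Hif1a, the oxygen-labile subunit of the hypoxia factor, gave signals of 1537, 1507 and 1799.8 in mock cells of experiment 1, 1947, 2079.5 and 2382 in mock cells of experiment 2, 1415, 1666 and 1741 in p25alpha cells of experiment 1 and 1786, 2086 and 2121 in p25alpha cells of experiment 2. Each of the 4 pairs was higher at 16 h by 0.23 to 0.30, a narrow range, while the arrays of experiment 2 were all above those of the same group in experiment 1, so that the 8 h and 16 h groups overlapped. The difference was 0.27 ± 0.20 over both arms, with an adjusted p of 0.388 under the block. Egln1, the prolyl hydroxylase that marks the HIF alpha subunit under normal oxygen, differed by 0.22 ± 0.26 in mock cells and -0.23 ± 0.26 in p25alpha cells.

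Of the hypoxia-responsive genes, Bnip3, a mitochondrial receptor that draws mitochondria into autophagy, gave signals of 620.0, 767 and 1153 in mock cells of experiment 1, 737, 978 and 1159 in mock cells of experiment 2, 710.2, 945 and 1045 in p25alpha cells of experiment 1 and 909.5, 1007 and 1130.4 in p25alpha cells of experiment 2. Every 16 h array exceeded every 8 h array, and the 12 h array lay between them in each arm of each experiment. The difference was 0.77 ± 0.22 in mock cells, 0.44 ± 0.22 in p25alpha cells and 0.60 ± 0.16 over both, which is 1.52-fold. In p25alpha cells it was 0.26 without the experiment 1 p25alpha array at 8 h. Under the block its adjusted p of 0.152 over both arms was the lowest of the set in any comparison, and with the block and quantile normalization together it was 0.136. Bnip3l, its paralogue with the same role, gave 1197, 1372 and 1497 in mock cells of experiment 1, 1151, 1439 and 1440.5 in mock cells of experiment 2, 1318, 1361 and 1407 in p25alpha cells of experiment 1 and 1195, 1438 and 1509 in p25alpha cells of experiment 2. Again no 16 h array fell within the 8 h range, and the difference over both arms was 0.27 ± 0.13. A second tested probe set of Bnip3l was also higher at 16 h in all 4 pairs.

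Ddit4, which restrains the growth kinase mTOR under stress, gave signals of 458, 369 and 481 in mock cells of experiment 1, 235, 320.4 and 404 in mock cells of experiment 2, 486, 562 and 698 in p25alpha cells of experiment 1 and 248, 341 and 419 in p25alpha cells of experiment 2. It was higher at 16 h in all 4 pairs, by 0.53 ± 0.33, with an adjusted p of 0.388 under the block, and was 0.29 without the experiment 2 p25alpha array at 8 h. The mock pair of experiment 1 differed only by 0.071 and the groups overlapped. P4ha1, a subunit of the enzyme that hydroxylates collagen prolines, gave 469, 670.4 and 656 in mock cells of experiment 1, 581, 671 and 914 in mock cells of experiment 2, 630.4, 491 and 584 in p25alpha cells of experiment 1 and 574, 579 and 793 in p25alpha cells of experiment 2. It was higher at 16 h in 3 of 4 pairs, with differences of 0.57 ± 0.26 in mock cells and 0.18 ± 0.26 in p25alpha cells. The mock difference was 0.33 without the experiment 2 mock array at 16 h. Ndrg1, a stress gene also known from nerve myelin, gave 8.30, 16.0 and 21.6 in mock cells of experiment 1, 23.6, 22.4 and 40.5 in mock cells of experiment 2, 14.8, 26.7 and 30.7 in p25alpha cells of experiment 1 and 38.3, 36.7 and 60.1 in p25alpha cells of experiment 2. All 4 pairs were higher at 16 h, yet no mock array and 3 of 6 p25alpha arrays called it present, so no fold change over time is given.

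Adm, the vasodilator peptide adrenomedullin, was higher in all 4 pairs by 0.22 ± 0.40, and Car9, a carbonic anhydrase of the cell surface, in 3 of 4 by 0.17 ± 0.23. Vegfa, the endothelial growth factor that hypoxia is best known to raise, gave signals of 146, 107 and 98.0 in mock cells of experiment 1, 68.3, 74.0 and 72.6 in mock cells of experiment 2, 119.5, 122 and 83.0 in p25alpha cells of experiment 1 and 84.6, 100.4 and 88.6 in p25alpha cells of experiment 2. It was lower at 16 h in both pairs of experiment 1 and slightly higher in both of experiment 2, with a difference of -0.24 ± 0.28 over both arms. The other 7 hypoxia-responsive genes had a difference above 0.

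**Figure D3:**
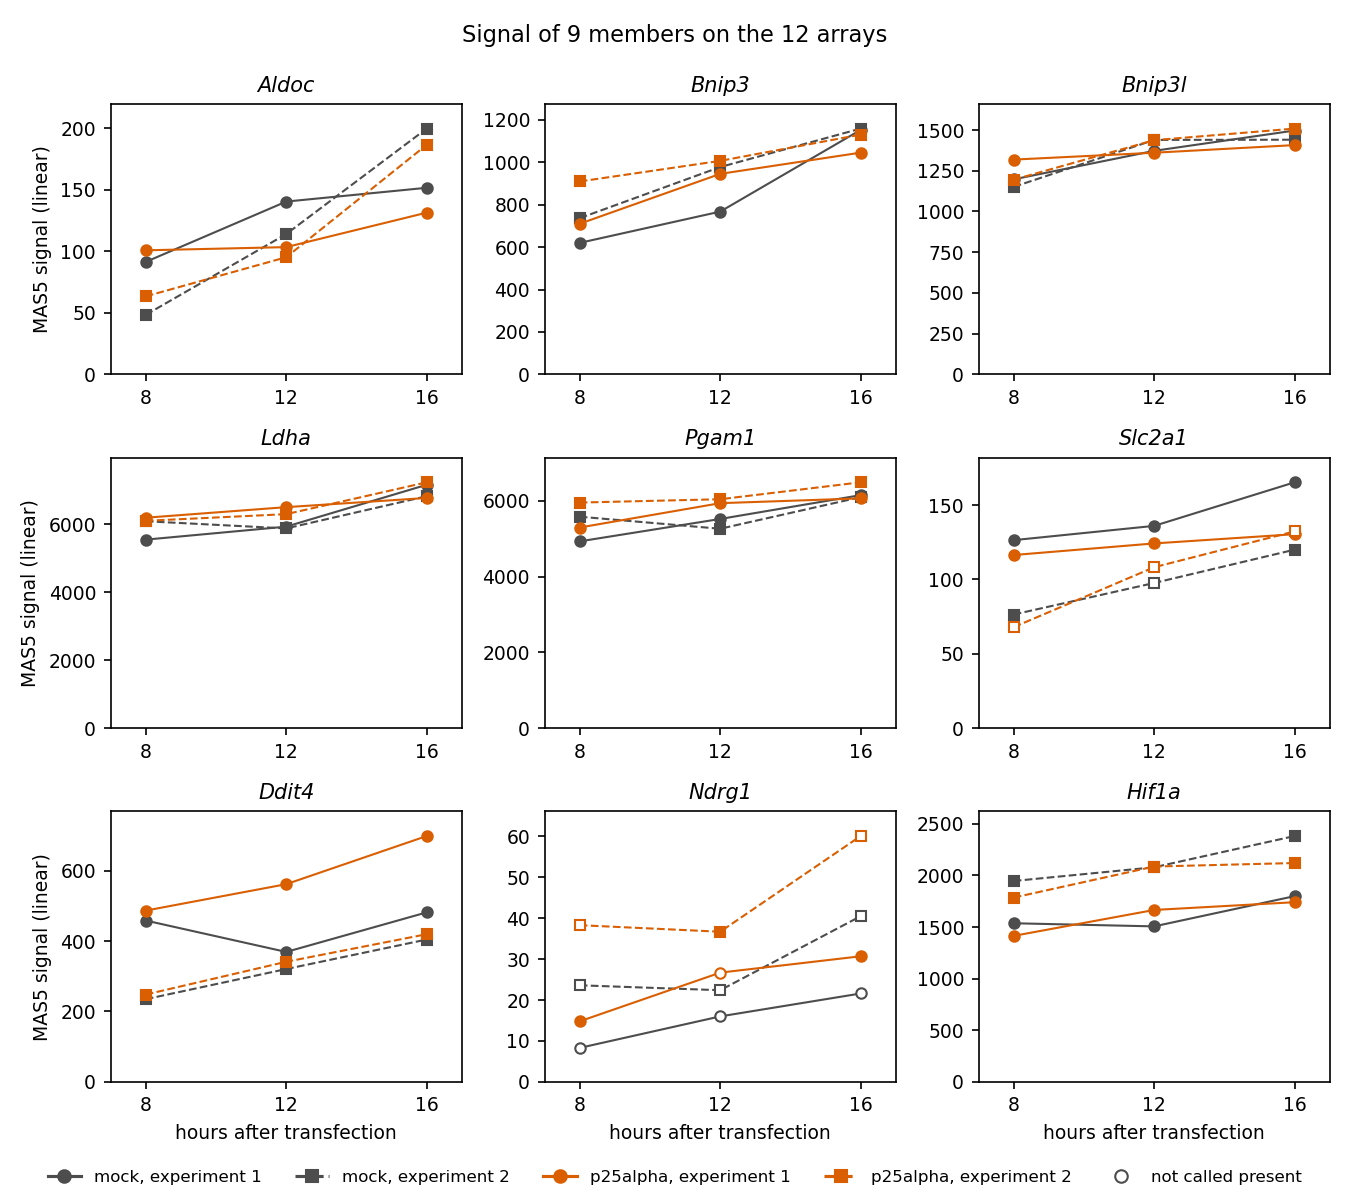
MAS5 signal on a linear y axis against hours after transfection on the x axis, for 9 genes in separate panels: Aldoc, Bnip3, Bnip3l, Ldha, Pgam1, Slc2a1, Ddit4, Ndrg1 and Hif1a. Each line joins the 3 arrays of 1 arm in 1 experiment, and open symbols mark arrays on which the gene was not called present, as for every mock array of Ndrg1.

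The promoters of 4 of the 5 genes whose 16 h arrays all lay above the 8 h arrays are printed here, to show the sequence next to their starts. After quantile normalization Pgam1 and Ldha were no longer among such genes. All 4 were chosen after their values were seen, and Bnip3l has no entry in the table. HIF is known to bind at sites with an ACGTG core. RefSeq windows of the rat build GRCr8, which run from 250 bases before each gene's start and are 300 bases long, were found for 31 of the 35 genes, 36 windows in all. Bnip3l, Ndrg1, Pgk1 and Slc2a3 are the others. Capitals mark ACGTG and its reverse complement CACGT, and the palindrome CACGTG counts as 2 overlapping matches. The windows lie at chr10:63715294-63715593 (+ strand) for Aldoc, chr1:250672902-250673201 (+ strand) for Pgam1, chr1:106507842-106508141 (+ strand) for Ldha and chr1:203154913-203155212 (- strand) for Bnip3.
Aldoc: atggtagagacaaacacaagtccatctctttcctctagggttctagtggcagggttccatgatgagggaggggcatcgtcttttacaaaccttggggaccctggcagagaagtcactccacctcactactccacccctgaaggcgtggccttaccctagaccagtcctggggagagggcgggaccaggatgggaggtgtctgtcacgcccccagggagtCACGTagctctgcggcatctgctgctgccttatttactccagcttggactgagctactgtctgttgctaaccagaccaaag
Pgam1: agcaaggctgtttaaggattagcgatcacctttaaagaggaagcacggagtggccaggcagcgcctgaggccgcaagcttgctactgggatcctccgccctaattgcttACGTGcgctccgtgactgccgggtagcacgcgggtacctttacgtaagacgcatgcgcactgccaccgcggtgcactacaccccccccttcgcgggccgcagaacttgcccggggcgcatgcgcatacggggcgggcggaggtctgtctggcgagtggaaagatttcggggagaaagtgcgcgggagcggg
Ldha: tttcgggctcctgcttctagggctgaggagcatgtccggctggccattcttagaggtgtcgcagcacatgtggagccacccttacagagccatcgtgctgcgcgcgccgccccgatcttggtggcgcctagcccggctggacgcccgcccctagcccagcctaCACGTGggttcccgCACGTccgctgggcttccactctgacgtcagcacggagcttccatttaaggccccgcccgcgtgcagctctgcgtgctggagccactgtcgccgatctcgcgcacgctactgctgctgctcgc
Bnip3: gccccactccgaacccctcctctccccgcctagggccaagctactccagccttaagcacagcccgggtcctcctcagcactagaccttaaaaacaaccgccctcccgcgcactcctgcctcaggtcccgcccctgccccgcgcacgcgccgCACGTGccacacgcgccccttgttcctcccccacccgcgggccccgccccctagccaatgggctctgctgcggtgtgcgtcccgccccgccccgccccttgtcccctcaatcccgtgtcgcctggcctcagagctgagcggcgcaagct
Aldoc has its match starting 31 bases before the start of the gene and Pgam1 141 bases before it. Ldha holds 3 matches and Bnip3 2, each with the palindrome. Over both strands the letters occur in 21 of 36 member windows, 58.3%, and in 19.3% of all 33469 windows. GCGTG, not marked above, occurs in 17 of 36 member windows, 47.2%, and in 29.7% of all. The member windows also hold more G and C, with a median of 63.3% against 51.7%. The pair C then G, which both motifs contain, has a median count of 20 against 7. The shares were not matched for either. Such a match describes the letters and not binding. Slc16a1 and Pdk3, with 3 and 1 ACGTG matches, were not higher at 16 h over both arms.

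The next comparison asked whether the change from 8 to 16 h differed between the arms. For 24 of 33 genes the p25alpha change was the smaller, and the median of p25alpha minus mock was -0.11; 27.3% of members and 50.2% of all probe sets had a larger change in p25alpha cells. No gene passed the test of this difference, which called 0% of all probe sets; at an unadjusted p under 0.05 it passed 0 members, against 1.05% of all probe sets, and 0 with the block, against 4.28%. All 6 genes of lower glycolysis had the smaller change in p25alpha cells, with a median of -0.22, but after quantile normalization 4 of 6 did, with -0.087. In both experiments the mock change was the larger for 15 genes, 45.5% against 26.2%, and the smaller for Tpi1, Slc16a1 and Pdk3, 9.09% against 26.7%. The change had opposite signs in the arms, alike in both experiments, for Slc16a1, Egln1 and Pgk1, 9.09% against 8.84%. The other bright probe set of Pgk1 did not share this, with a mean change of 0.012 in p25alpha cells. The differences farthest from 0 were 0.48 ± 0.39 for Slc16a1, -0.45 ± 0.37 for Egln1, -0.42 ± 0.53 for Aldoc and -0.41 ± 0.29 for Eno2, with adjusted p of 1.0 with and without the block. The median of the difference moved with single arrays. In the fit without the block it was -0.24 and -0.0084 without the 8 h mock array of experiment 1 and of experiment 2. It was -0.037 and -0.27 without the 8 h p25alpha arrays in the same order. With the block these values were -0.14, -0.074, -0.058 and -0.19. Leaving out single arrays at 16 h under the block gave -0.20 to -0.041.

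Across the 33 members the changes in mock and in p25alpha cells correlated with a Pearson r of 0.83, or 0.64 without Aldoc and Ndrg1, whereas over all 19248 probe sets r was 0.11. Between experiments 1 and 2 it was 0.37 across members, 0.12 without those genes and 0.026 over all. These are descriptions across genes that share the same 8 arrays and are not independent.

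The last comparison set p25alpha against mock cells over the mean of 8, 12 and 16 h. Over the set, 15 of 33 genes were higher in p25alpha cells, 45.5% against 52.7% of all probe sets, with a median of -0.014. No member passed the test, which called 0.0208% of all probe sets without the block and 0.239% with it. At an unadjusted p under 0.05 it passed 0 members without the block, against 4.13% of all probe sets, and 2 with it, Hk1 and Ndrg1, against 14.0%. Ndrg1 met the detection rule through p25alpha arrays alone, 3 of 6 against 0 of 6 mock arrays, so the filter bears on its direction here and nothing is read from its place in these counts. In each of the 6 pairs of arrays of the same time and experiment, Ndrg1 and Ddit4 were higher in p25alpha cells, 6.06% against 5.99%, a share near the background. Hk1, Hk2, Pfkm, Tpi1 and Ldhb were lower in all 6, 15.2% against 5.01%. Hk1 and Ldhb were no longer so after quantile normalization, nor was Tpi1 once the arrays were centred on their median. In at least 5 of the 6 pairs 10 genes were lower, 30.3% against 16.8%, and 6 were higher, 18.2% against 21.0%. The sign turned between times, alike in both experiments, for 9 genes, 27.3% against 22.3%.

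**Figure D4:**
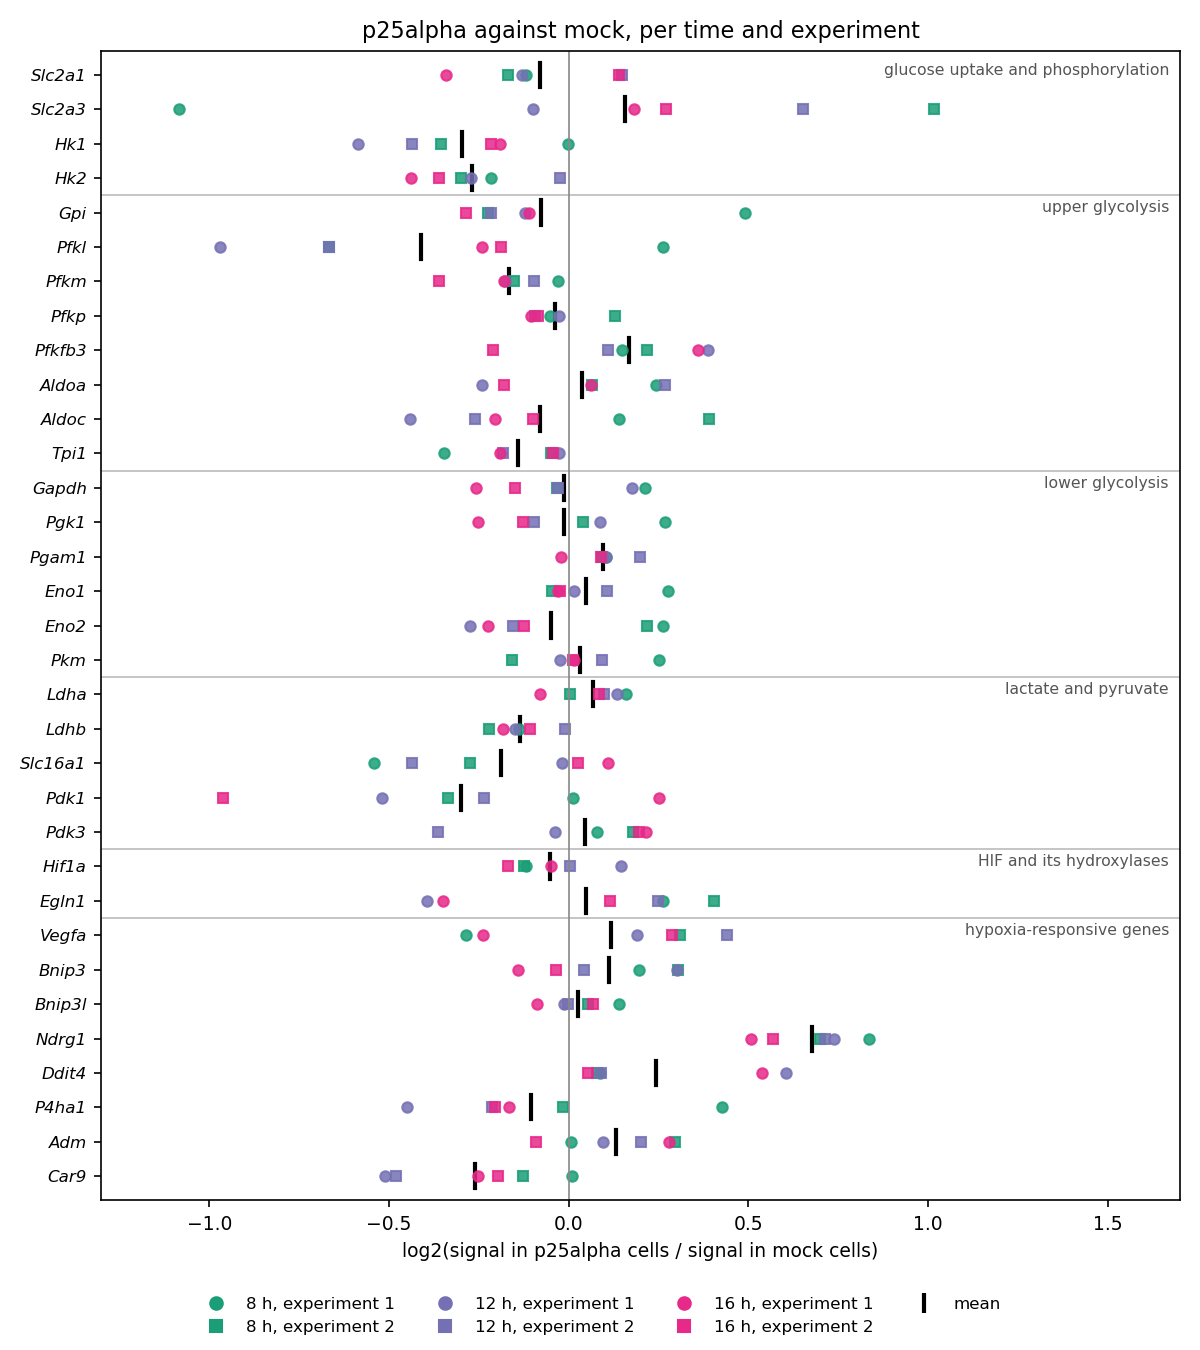
The log2 signal of p25alpha cells minus that of mock cells, on the x axis, is drawn for each of the 33 tested genes by role, with 1 point for each of the 6 pairs of arrays (8, 12 and 16 h, experiments 1 and 2) and a tick at their mean. The points of Hk1, Hk2, Pfkm, Tpi1 and Ldhb all lie below 0, those of Ndrg1 and Ddit4 all above, and most other genes have points on both sides.

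At the entry to glycolysis Hk1, the hexokinase of brain, gave signals of 606, 681 and 551 in mock cells of experiment 1, 311, 341 and 354 in mock cells of experiment 2, 606, 453 and 483 in p25alpha cells of experiment 1 and 243, 252 and 305 in p25alpha cells of experiment 2. The p25alpha array was the lower in all 6 pairs, although by almost nothing in experiment 1 at 8 h, and the difference was -0.30 ± 0.34, with an adjusted p of 0.291 under the block. Hk2, the hexokinase of muscle and tumours, gave 217, 236 and 205 in mock cells of experiment 1, 164, 157 and 212 in mock cells of experiment 2, 187, 196 and 151 in p25alpha cells of experiment 1 and 133, 154 and 165 in p25alpha cells of experiment 2, and differed by -0.27 ± 0.17. The second probe set of Hk2 had signals of 34.1 to 78.8 and was lower in 4 of the 6 pairs. Pfkl, the phosphofructokinase of liver, gave 117, 115 and 92.9 in mock cells of experiment 1, 66.8, 69.4 and 75.9 in mock cells of experiment 2, 140.2, 58.9 and 78.6 in p25alpha cells of experiment 1 and 42.1, 43.7 and 66.6 in p25alpha cells of experiment 2. It was lower in 5 of 6 pairs, by -0.41 ± 0.32, the widest negative difference of the set, and higher only in experiment 1 at 8 h. In the fit without the block, the difference of Pfkl was -0.12 without the experiment 2 p25alpha array at 8 h, and that of Hk1 -0.079. That group then held only an array of experiment 1. The mean log2 signals of Pfkl and Hk1 were higher in experiment 1 by 0.71 and 0.90, and this enters both values. Pfkm and Tpi1 differed by -0.17 ± 0.12 and -0.14 ± 0.12. Both tested probe sets of Pfkm had a negative difference. The 6 genes of lower glycolysis had differences from -0.050 for Eno2 to 0.10 for Pgam1.

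In lactate and pyruvate handling, Ldhb differed by -0.14 ± 0.15 and Slc16a1 by -0.19 ± 0.16, the latter with both 8 h pairs and both 12 h pairs lower and both 16 h pairs higher in p25alpha cells. Pdk1 gave signals of 54.0, 59.6 and 51.4 in mock cells of experiment 1, 66.5, 57.6 and 84.4 in mock cells of experiment 2, 54.4, 41.6 and 61.2 in p25alpha cells of experiment 1 and 52.7, 48.9 and 43.3 in p25alpha cells of experiment 2. Its groups overlapped, and its p25alpha signal was the lower at every time in experiment 2 but only at 12 h in experiment 1, with a difference of -0.30 ± 0.17. Hif1a differed by -0.052 ± 0.16 and Egln1 by 0.048 ± 0.15.

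Of the hypoxia-responsive genes, 6 of 8 were above 0, against 52.7% of all probe sets, with a median of 0.11 against 0.013. Ndrg1 is among the 6 and met the detection rule through p25alpha arrays alone, so nothing is read from this count or median. By its mean log2 signals Ndrg1 was 1.60-fold higher in p25alpha cells. It was called present on no mock array and on 3 of 6 p25alpha arrays, so this ratio is uncertain. The adjusted p of Ndrg1 was 0.171 in limma's fit under the block. Since it was tested only through those p25alpha arrays, ratio and p are given as a description. Its signals in experiment 2 exceeded those of the same group in experiment 1 throughout. Ddit4 differed by 0.24 ± 0.27, with pair differences from 0.053 to 0.61, the largest at 12 and 16 h in experiment 1. Car9 gave signals of 302, 319 and 304 in mock cells of experiment 1, 209, 228 and 293 in mock cells of experiment 2, 305, 224 and 255 in p25alpha cells of experiment 1 and 191, 163 and 256 in p25alpha cells of experiment 2. It was lower in p25alpha cells at 12 and 16 h in both experiments, with a difference of -0.26 ± 0.18. Vegfa, Adm, Bnip3 and Bnip3l differed by 0.12, 0.13, 0.11 and 0.026, each within its SE without the block. With the block the SEs were 0.15, 0.10, 0.079 and 0.069, which the differences of Adm and Bnip3 exceeded and those of Vegfa and Bnip3l did not.

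The authors' deposited table also gives a change call for each pair of arrays, including 8 steps in time (12 against 8 h and 16 against 12 h, in each arm and experiment). Marginal calls are counted here with the others. Of the 264 member values over these steps in the authors' deposited table, 28 were called increased, 3 of them marginally, 10.6% against 1.95% of all tested values, and 7 decreased, 2.65% against 2.82%. Bright probe sets, with a mean log2 signal of 10 or more, were called increased more often in the authors' deposited table. Among them 7 of 88 member values were increased, 7.95% against 4.93% of all bright values, and 2 decreased, 2.27% against 2.08%. Aldoc was called increased in 6 of the 8 steps of the authors' deposited table, Ddit4 and P4ha1 in 4 each, and Bnip3, Car9 and, marginally, Aldoa in 2 each. For p25alpha against mock the authors' deposited table called 6 of 198 member values increased, 3.03% against 2.58%, and 11 decreased, 1 of them marginally, 5.56% against 2.61%. Among the bright probe sets of the authors' deposited table, 2 of 66 member values were increased, 3.03% against 3.36%, and 2 decreased, 3.03% against 2.78%. Ddit4 was called increased at 12 and 16 h in experiment 1 in the authors' deposited table, and Pfkl decreased at 12 h in both experiments. These calls come from the probes of 2 arrays and have no replicate error.

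Related genes outside the set were read from longer lists that were chosen with earlier results of these data known. Of 47 further genes of glycolysis, the pentose phosphate path and pyruvate oxidation, 29 were tested, and of 60 further genes of the hypoxia response and its control, 42; Pfkfb4 stands in both. None passed the test in either direction in any of the 5 comparisons, with or without the block. The first list had medians of 0.092 in mock cells (21 of 29 above 0) and -0.014 in p25alpha cells (13 of 29) from 8 to 16 h. The second had -0.021 (18 of 42) and 0.13 (30 of 42), so that the wider hypoxia list did not share the members' upward median in mock cells. Over both arms the values farthest from 0 were 0.32 ± 0.46 for the glycerol phosphate dehydrogenase Gpd1 and -0.16 ± 0.52 for Pgls in the first list. In the second they were 0.40 ± 0.20 for the stress gene Sesn1, 0.40 ± 0.18 for the repressor Bhlhe40, -0.58 ± 0.16 for the ubiquitin ligase Siah2, which targets the hydroxylases, and -0.53 ± 0.36 for haem oxygenase Hmox1. For p25alpha against mock, Hmox1 was higher in all 6 pairs, by 0.78 ± 0.29, with an adjusted p of 0.0818 under the block, and the kinase gene Mtor differed by -0.31 ± 0.21.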

How the data were processed

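Total RNA from 12 samples was hybridised as biotinylated cRNA to Affymetrix arrays, 1 array per sample, per the labels' protocols. The deposited intensity values are MAS5 signals on a linear scale, per the submitters' processing notes (no version is given in the sources used here), and in the deposited table each array has a mean of 150.1 after trimming 2.0% of probe sets at each end. The same deposited table, per its file headers, holds detection calls (present, marginal or absent), the authors' log2 signal ratios and change calls. A second deposited table gives these intensity values as whole numbers, within 0.5 of the first, and its 3.0 additional probe sets were not analysed here. No genome build for the annotation is given in the sources used here. No probe set has the symbol Tppp, so the level of the transfected gene was not analysed here. The number of arrays limits the precision.

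Signals below 0.1 were raised to 0.1 (16.0 values), log2 was taken, 57.0 control probe sets were left out, and probe sets called present on at least 2.0 arrays (61.9%) were tested with limma 3.58.1 in R 4.3.3 (lmFit and eBayes on 6 group means over 12 arrays, Benjamini-Hochberg over 19248 probe sets). Other values were computed in Python 3.11.15. Pkm was found through its gene title and Egln3 through the accession in its title. All members may be named. In each comparison, the 4 with the largest rise and the 4 with the largest fall among members present on both arrays of a group were followed as single results through every alternative; other members are also given with their error. Of each longer list the 2 at either end are named. The members and lists were chosen with earlier results of these data known. The experiment number, taken from the titles, pairs arrays across groups: deviations from the group means of same-numbered arrays correlated with r between 0.47 and 0.57 over 15 pairs of groups, and the first principal component (42.0%) separates the experiments. Alternatives were the experiment as a fixed or random block, quantile normalization, centring on the median, other filters, adding 50.0 to the signals, eBayes with its trend and robust options, the compared arrays alone, averaging a gene's probe sets and each array left out. The split by brightness was added after seeing the data. The fit was tested on simulated data with known changes.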

Additional observations from a re-analysis of the deposited data

Results flagged for a closer look

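Some genes had a p25alpha minus mock difference of one sign in both experiments at one time and of the other sign in both at another. Values are mean log2 differences, and these differences between times were not tested. Such a turn was seen in 9 of 33 members, 27.3%, against 22.3% of all tested probe sets. Among enzymes of glycolysis, Aldoc went from 0.27 at 8 h to -0.35 at 12 h, a change of -0.62, and stood at -0.15 at 16 h, a change of -0.42 from 8 h. Eno2 went from 0.24 at 8 h to -0.22 at 12 h, a change of -0.46, and stood at -0.17 at 16 h, a change of -0.41 from 8 h. Pgk1 went from 0.15 at 8 h to -0.19 at 16 h, a change of -0.34. Eno1 went from 0.06 at 12 h to -0.03 at 16 h, a change of -0.09. The lactate transporter Slc16a1 went from -0.41 at 8 h to 0.07 at 16 h, a change of 0.48, and from -0.23 at 12 h, a change of 0.29. Pdk3 went from 0.13 at 8 h to -0.20 at 12 h, a change of -0.33, and on to 0.21 at 16 h, a change of 0.41. Of the hypoxia group, Bnip3 went from 0.25 at 8 h to -0.09 at 16 h, a change of -0.34, and from 0.17 at 12 h, a change of -0.26. Bnip3l went from 0.10 at 8 h to -0.01 at 12 h, a change of -0.10. Its 12 h pairs lay close to 0, at -0.012 and -0.0016. The second tested probe set of Bnip3l did not turn at 12 h: p25alpha cells were higher in both experiments, at 1119.8 against 993.5 and 1349.3 against 1322.5. Hif1a went from -0.12 at 8 h to 0.07 at 12 h, a change of 0.20, and on to -0.11 at 16 h, a change of -0.18.

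For 3 members the change from 8 to 16 h had one sign in both experiments of mock cells and the other in both of p25alpha cells, 9.09% against 8.84% of all tested probe sets. Slc16a1 stood at -0.34 in mock cells and 0.13 in p25alpha cells, a difference of 0.48. Egln1 stood at 0.22 and -0.23, a difference of -0.45, and Pgk1 at 0.27 and -0.07, a difference of -0.34. These differences were tested with limma, and each had an adjusted p of 1.0 with and without the block. The other bright probe set of Pgk1 did not share the opposite signs. In p25alpha cells it went from 4104.9 to 4242.4 in experiment 1 and from 3974 to 3910.9 in experiment 2, a mean of 0.012. Its difference between the arms was -0.27.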

How the results depend on the processing

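No member passed the adjusted threshold in any comparison under any of the 36 alternatives, and the lowest adjusted p was 0.136, for Bnip3 over both arms with the replicate block and quantile normalization. The block changed no call of a member, but over all probe sets the effect of p25alpha had 4 calls without it, 46 with it and 45 with it as a random term; paired by experiment, the members' medians were 0.22 in mock and 0.0016 in p25alpha cells over time, as without it. Over time in both arms the block called 3 probe sets, and 0 were called without it. The mock median over time, 0.22, was 0.10 after quantile normalization and 0.27 after centring, each alike with the block, 0.18 with an offset of 50, and 0.14 for members under a log2 signal of 10. Leaving out 1 array, with or without the block, moved this median from 0.068 to 0.30, that of p25alpha cells from -0.080 to 0.18, of both arms from 0.028 to 0.23, of the difference between arms from -0.27 to -0.0084 and of p25alpha against mock from -0.059 to 0.038. With the block only, these medians ran, in the same order, from 0.15 to 0.25, -0.037 to 0.14 and 0.0735 to 0.1675. The last of them ran from -0.20 to -0.041 and from -0.033 to 0.013. The count of genes higher at 16 h in all pairs left ran from 12 to 18. It was 8 after quantile normalization and 11 with the filter at the median signal, which drops Ndrg1. The count of genes higher with p25alpha ran from 2 to 4 (1 with that filter) and lower from 5 to 9 (3 after quantile normalization). Fewer pairs are easier to meet.

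Over the 165 differences of 33 members in 5 comparisons, the sign turned in 18 after quantile normalization and 4 after centring, alike with the block, in 5 with the offset, 3 with the mean over probe sets, 0 with the block alone, and in 340 of 3960 values with 1 array left out. For the 40 differences largest in their comparison (4 each way), 923 of 960 values with 1 array left out kept direction. Of the other values, 459 of 461 kept direction and side of the threshold. Many of the values in these counts could not turn. In this balanced design the block alone changes the error of a difference and not the difference. The same holds for other filters, the trend and robust options and the compared arrays alone. Leaving out an array of a group outside a comparison also leaves that difference as it was. The counts therefore overstate how far the directions were tested. With 1 array left out, 15 of the 40 turned and 19 more moved by over 1.5 times. Pfkfb3 for p25alpha turned to -0.0030 after quantile normalization, with and without the block. The 15 that turned with 1 array left out ranged as follows. For p25alpha against mock, Adm ran from -0.059 to 0.32, Pfkfb3 from -0.090 to 0.43 and Slc2a3 from -0.076 to 0.39. For the difference between arms, Aldoc ran from -0.88 to 0.041, Ddit4 from -0.27 to 0.70, Slc2a3 from -0.44 to 0.96 and Tpi1 from -0.10 to 0.26. Over time, Slc2a3 ran from -1.13 to 0.26 in mock cells, -0.78 to 0.43 in p25alpha cells and -0.65 to 0.042 in both, Vegfa from -0.79 to 0.30, -0.56 to 0.10 and -0.51 to 0.037, Egln1 in p25alpha cells from -0.51 to 0.058 and Slc16a1 in both arms from -0.23 to 0.019. The causes were not tested. With 2 arrays a group, the fit has 6 residual degrees of freedom, or 5 with the block, and a lone array was assumed to vary like the other groups.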

Other observations

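The experiments separated some members, but a smaller share of them in all than of all probe sets. In Hk1, Gpi, Aldoa, Eno1, Pkm and Adm all 6 arrays of experiment 1 lay above all 6 of experiment 2, 18.2% of the 33 members against 13.4% of all tested probe sets, and in Ldhb all 6 lay below, 3.03% against 15.5%. The mean log2 difference, experiment 1 minus experiment 2 with the SD over 6 pairs of the same group, was 1.11 ± 0.26 for Gpi, 0.90 ± 0.25 for Hk1 and 0.86 ± 0.23 for Adm. Signals of Gpi ran from 1562 to 2196 (median 1854) in experiment 1 and from 724 to 1049 (median 854) in experiment 2. Ddit4 was higher in experiment 1 in all 6 pairs, by 0.64 ± 0.34, while Hif1a and Ndrg1 were lower in all 6, by -0.36 ± 0.065 and -0.95 ± 0.44. Ldha, Bnip3l and Pgam1, with -0.013 ± 0.082, 0.00084 ± 0.10 and -0.065 ± 0.10, lay near 0. The actin and hexokinase ratios of 3′ to 5′ signal were also higher on every array of experiment 2, and their part in these differences was not tested.

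The untested exporter Slc16a3 gave signals of 2.10 to 28.2, with a present call only on the p25alpha array at 12 h of experiment 2, and the hydroxylase Egln3 gave 0.300 to 11.7, with a present call only on the p25alpha array at 16 h of experiment 1.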
